A study of Arabidopsis thaliana with 4 samples.

Results

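The 31 genes described here encode the enzymes, a transport protein and the transcriptional regulators of the phenylpropanoid, flavonoid and anthocyanin pathway of Arabidopsis thaliana. They were set by locus as a list of known pathway genes, with earlier results of these data known, so the counts of members below do not come from an unselected list. A probe was taken where its gene name, without the transcript suffix, was one of these loci. All 31 were found among the 21500 gene probes of the array, each with 1 probe. RNA came from rosette leaves of 3-week-old plants of the Col-0 background. In the transformants OX7 and OX17 the wheat GSK3/Shaggy-like kinase TaSK5 was expressed from the 35S promoter, a viral promoter active in most plant cells. OX7 and OX17 were independent plants of the first transgenic generation (T1), and the plants they were set against were wild-type Col-0 of the same age, all without treatment.

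RNA of each transformant and of wild-type plants shared 2 two-colour arrays that differed in which dye each carried. Replicate 1 carried the transformant in Cy5 and replicate 2 carried it in Cy3. The 2 arrays of a transformant hold the same RNAs and count as 1 replicate, which leaves n = 2 transformants. Whether OX7 and OX17 were set against the same wild-type RNA is not stated in the labels. No probe was named for a wheat gene, so the level of TaSK5 itself was not analysed here.

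Phenylalanine enters the pathway through phenylalanine ammonia-lyase (PAL), cinnamate 4-hydroxylase (C4H) and 4-coumarate:CoA ligase (4CL), which make the activated coumaric acid that lignin, sinapate esters and flavonoids share. Chalcone synthase, chalcone isomerase and flavanone 3-hydroxylase then build the flavonoid skeleton. Flavonol synthase leads from there to flavonols, which shield leaves from ultraviolet light, and dihydroflavonol reductase leads to anthocyanins, the red and purple pigments of stressed leaves. The early genes are driven by the MYB factors MYB11, MYB12 and MYB111. The late genes are driven by complexes of a MYB such as PAP1, a bHLH factor such as TT8 or EGL3, and the WD40 protein TTG1.

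Values are log2 ratios of transformant over wild type after loess normalisation within each array, so 1 is 2-fold higher and -1 is 2-fold lower in the transformant. A probe entered the test if the scanner program called it well above background in every TaSK5 channel or in every wild-type channel, which held for 18854 probes and 25 of the 31 genes. Those 25 were above background in all 4 wild-type channels, and 24 of them in all 4 TaSK5 channels too. Of the 25, 6 were higher and 6 lower on all 4 arrays. Among all probes measured on 4 arrays these shares were 12.4% and 12.2%. Centring each array on its median instead of loess gave 3 genes higher (PAP1, PAP2 and MYBL2) and 6 lower (4CL3, TT4, F3H, FLS1, UGT78D2 and MYB4), where 7.13% and 10.4% of all probes were. With limma on the 2 transformant means, 0 of the 25 passed an adjusted p under 0.05, as did 0% of all probes in either direction. At an unadjusted p under 0.05 there were 5, where 4.38% of all probes were that low. They were MYBL2 and PAP1 among the higher genes, beside 2.61% of all probes, and FLS1, TT4 and F3H among the lower ones, beside 1.76%. At least 2-fold lower on all 4 arrays were 0 of the 25 genes and 0.0325% of all probes. The differences below are therefore measured differences that did not pass the test.

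**Figure D1:**
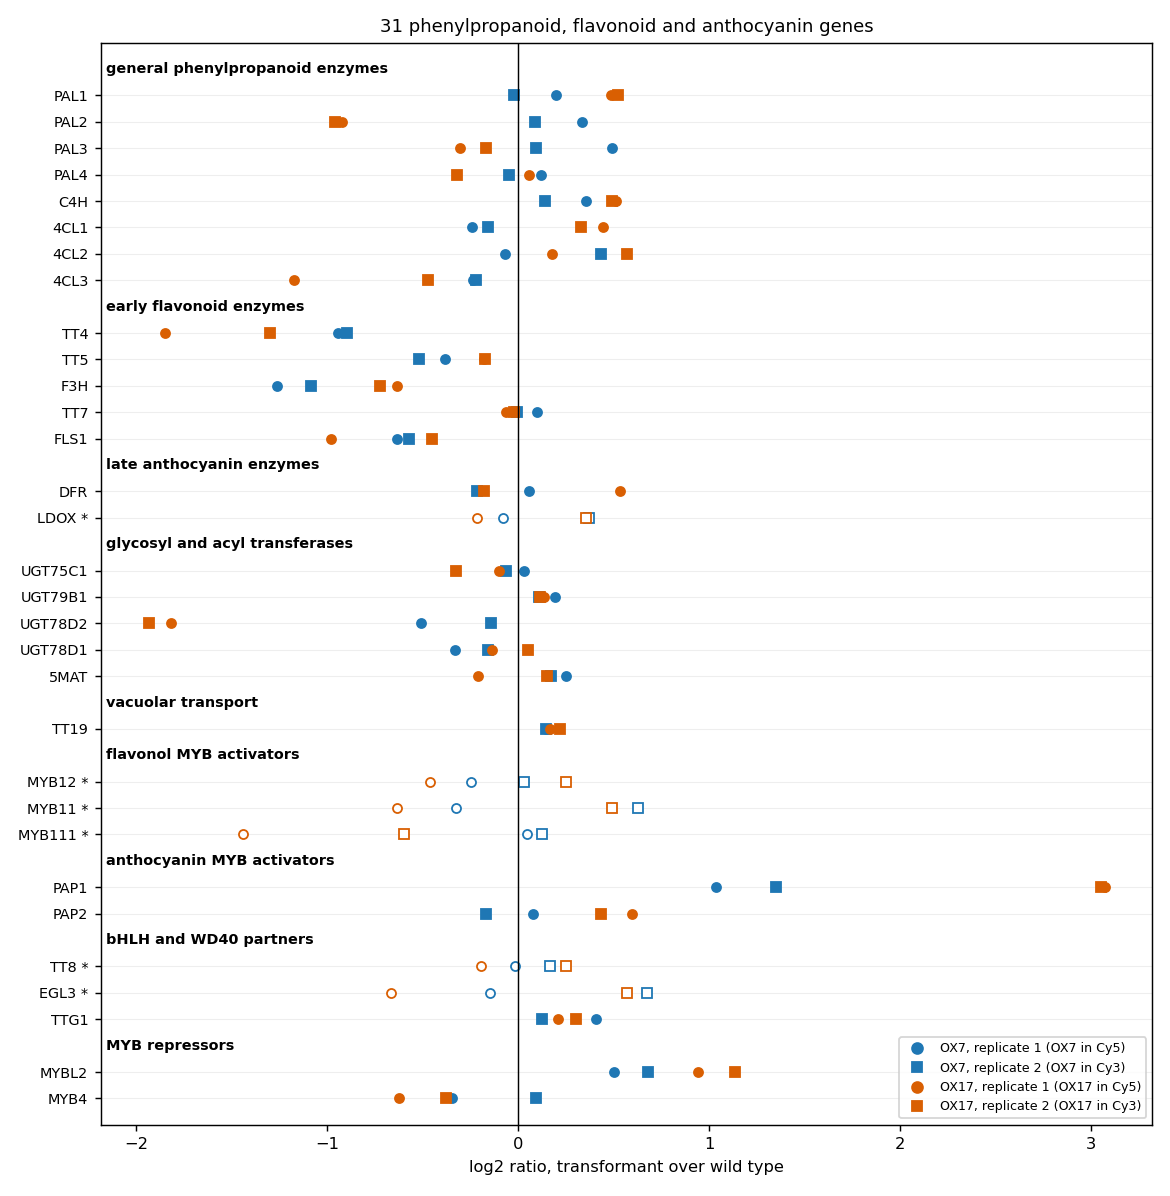
Log2 ratio of transformant over wild type (x axis) for each of the 31 genes (rows, grouped by pathway step) on each array. Blue is OX7 and orange is OX17, circles are replicate 1 and squares replicate 2. Open symbols and a star mark the 6 genes that did not pass the filter on dim probes. PAP1 lies farthest to the right on every array, and TT4, F3H and FLS1 lie left of 0 on every array.

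All 5 rosette leaf markers, among them genes of Rubisco, carbonic anhydrase and photosystem II proteins, were well above background in all 8 channels, against 3 of 5 floral, 3 of 4 root and 1 of 4 seed markers. The leaf markers had a median log2 ratio of 0.67 in OX7 and -0.29 in OX17. Of the 8 channel signals of each marker, 7 were saturated for RBCS1A (AT1G67090), 7 for RCA (AT2G39730) and 3 for PSBO1 (AT5G66570). Carbonic anhydrase CA1 (AT3G01500) was lower on all 4 arrays, at -0.51 and -0.13 in OX7 and -2.42 and -2.20 in OX17. Each of the other 4 leaf markers changed direction between arrays. The summed signal of the root markers was 777 to 790 in OX7, 982 to 1339 in OX17 and 565 to 655 in wild-type channels, without overlap between TaSK5 and wild type. Of them PYK10 (AT3G09260), a beta-glucosidase abundant in roots, was higher on each array, at 1.40 and 1.32 in OX7 and 2.47 and 2.31 in OX17. The root markers EXPA7 (AT1G12560) and COBL9 (AT5G49270) had mean log2 ratios of -0.0086 and -0.011, and NRT2.1 (AT1G08090) did not pass the filter. The summed signal of the root list thus does not stand for a rise shared by its genes. Guard cell markers, 4 of 4 above background, had a median log2 ratio of -0.01 in OX7 and -0.47 in OX17. Their summed signal was 2129 to 2282 in OX7, 1100 to 1188 in OX17 and 1818 to 2163 in wild-type channels. The guard cell genes were uneven. GC1 (AT1G22690) had mean log2 ratios of 0.81 in OX7 and -1.54 in OX17, and MYB60 (AT1G08810) had -0.05 and -0.73. KAT1 (AT5G46240) had -0.21 and -0.16, and FAMA (AT3G24140) had 0.04 and -0.21. The summed signal of the 3 trichome markers, 2 of them above background in all 8 channels, was 557 to 561 in OX7, 386 to 434 in OX17 and 591 to 626 in wild-type channels. These genes were uneven as well. TRY (AT5G53200) had mean log2 ratios of -0.28 in OX7 and -0.98 in OX17. GL1 (AT3G27920) had 0.13 and -0.29, and GL2 (AT1G79840) had -0.00073 and 0.17. The part of these lists in the values below was not tested. In leaf RNA, fewer cells of a type and less RNA per cell cannot be told apart.

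The early flavonoid enzymes had the lowest median of the steps with at least 4 genes measured. Of its 5 genes, 4 were lower on all 4 arrays, as 12.2% of all probes were. The median log2 ratio of the step was -0.66, with -0.60 in OX7 and -0.68 in OX17. The median over all probes was -0.01. TT4 (AT5G13930), chalcone synthase and the first committed enzyme of flavonoid synthesis, had log2 ratios of -0.94 and -0.90 on the OX7 arrays and -1.85 and -1.30 on the OX17 arrays. All 4 arrays placed it on the same side, and the OX17 arrays lay lower. Its mean of -1.25 ± 0.46 (SD, n = 2 transformants) corresponds to a signal 2.37-fold lower than in wild type, with a limma 95% interval from -1.93 to -0.56 (adjusted p = 0.846). It was the 33rd lowest of the 18854 probes in the mean, the 31st lowest in OX7 and the 170th lowest in OX17.

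F3H (AT3G51240), flavanone 3-hydroxylase, had log2 ratios of -1.26 and -1.09 in OX7 and -0.63 and -0.72 in OX17. Here the OX7 arrays lay lower, the reverse of TT4. F3H was the 13th lowest of the 18854 probes in OX7 and the 1108th lowest in OX17. Its mean was -0.93 ± 0.35 (limma 95% interval -1.48 to -0.37, adjusted p = 0.846). FLS1 (AT5G08640), the main flavonol synthase, had log2 ratios of -0.64 and -0.57 in OX7 and -0.98 and -0.45 in OX17. The transformants overlapped, and their means were closer than those of TT4 or F3H, at -0.66 ± 0.08 (limma 95% interval -0.99 to -0.32, adjusted p = 0.846). FLS1 had the smallest unadjusted p of the 25 genes, at 0.00825 from the limma fit across all probes.

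TT5 (AT3G55120), chalcone isomerase, stood at -0.38 and -0.52 in OX7 and at -0.18 and -0.17 in OX17. It was the 280th lowest probe in OX7 and the 4596th in OX17, and with median centring it was not lower on all 4 arrays. TT7 (AT5G07990), the flavonoid 3'-hydroxylase that adds a hydroxyl group to the B ring, was the exception of the step. Its log2 ratios were 0.10 and -0.01 in OX7 and -0.06 and -0.02 in OX17, and the limma 95% interval of its mean ran from -0.33 to 0.33.

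**Figure D2:**
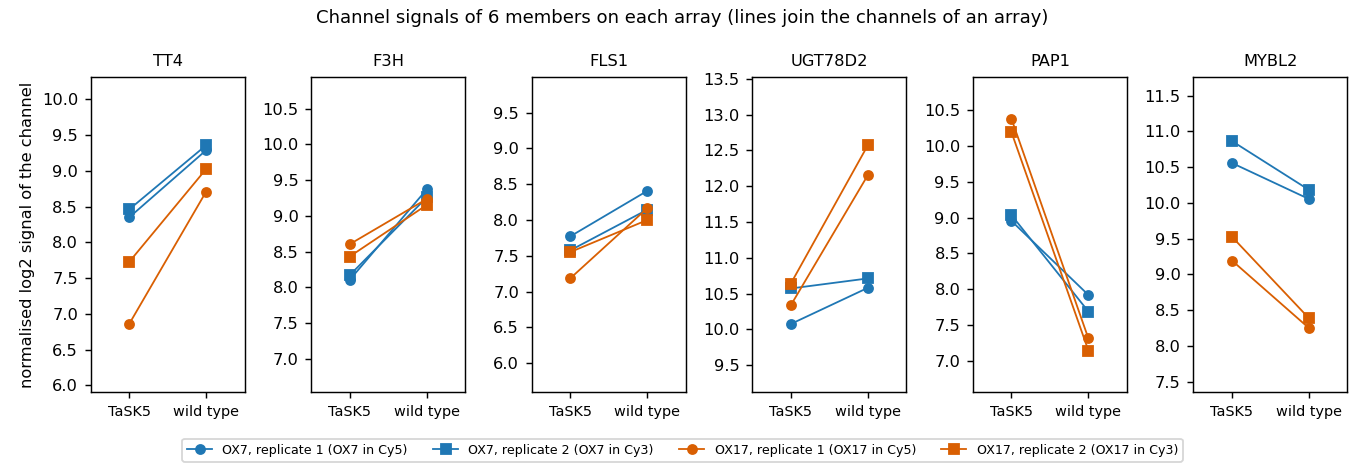
Normalised log2 signal (y axis, each panel spanning the same range) of the TaSK5 channel and the wild-type channel of each array for 6 genes. Lines join the channels of an array, blue for OX7 and orange for OX17. For TT4, F3H and FLS1 the TaSK5 signal lies below the wild-type signal on every array, for UGT78D2 the wild-type signal of the OX17 arrays stands apart, and PAP1 and MYBL2 run the other way.

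The channel signals behind these ratios were compared across arrays after loess and Aquantile normalisation. TT4 gave normalised log2 signals of 8.35 and 8.46 in OX7 and 6.86 and 7.73 in OX17, against 9.29 and 9.36 in the wild-type channels of the OX7 arrays and 8.71 and 9.03 in those of the OX17 arrays. The TaSK5 signals all lay below all of the wild-type signals. For F3H the TaSK5 signals were 8.11 and 8.17 in OX7 and 8.60 and 8.43 in OX17, against 9.37 and 9.26 and 9.24 and 9.15 in the wild-type channels of the same arrays. FLS1 had 7.77 and 7.58 in OX7 and 7.18 and 7.55 in OX17, against 8.41 and 8.14 and then 8.16 and 8.00 in the matching wild-type channels. For these 3 genes the groups of 4 signals did not overlap. Nor did those of 4CL3, at 7.09 to 8.13 for TaSK5 and 8.25 to 8.37 for wild type. The share of all probes without such overlap was not counted. The wild-type signals of the array pairs differed by 0.45, 0.12 and 0.19 on average for TT4, F3H and FLS1.

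The general phenylpropanoid enzymes upstream of this step did not share its direction. Of the 8 genes, 1 was higher and 1 lower on all 4 arrays, where 12.4% and 12.2% of all probes were. The median log2 ratio of the 8 was 0.06. C4H (AT2G30490) was higher throughout, at 0.36 and 0.14 in OX7 and 0.51 and 0.49 in OX17, with a mean of 0.38 ± 0.18 (limma 95% interval -0.02 to 0.77, adjusted p = 0.846), though not on all 4 arrays with median centring. 4CL3 (AT1G65060), the ligase isoform tied to flavonoid synthesis, was lower throughout. It stood at -0.24 and -0.22 in OX7 and -1.17 and -0.47 in OX17, with a mean of -0.52 ± 0.42 (adjusted p = 0.846). The ligases 4CL1 (AT1G51680) and 4CL2 (AT3G21240), which are tied to lignin, were not lower on all 4 arrays. 4CL2 stood at -0.07 and 0.43 in OX7 and 0.18 and 0.57 in OX17, while 4CL1 stood at -0.24 and -0.16 in OX7, close to 4CL3, and at 0.44 and 0.33 in OX17. The sequence of the probes was not used here, so cross-hybridisation between such close relatives was not tested.

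The PAL genes went different ways. PAL1 (AT2G37040) had log2 ratios of 0.20 and -0.02 in OX7 and 0.49 and 0.52 in OX17. PAL2 (AT3G53260), which acts with PAL1 as the main source of cinnamate in leaves, had 0.34 and 0.09 in OX7 and -0.92 and -0.96 in OX17. The OX17 arrays of PAL1 and PAL2 thus lay on opposite sides of 0 with little difference between dyes. PAL3 (AT5G04230) stood at 0.49 and 0.09 in OX7 and -0.30 and -0.17 in OX17, and PAL4 (AT3G10340) at 0.12 and -0.04 in OX7 and 0.06 and -0.32 in OX17. PAL2, PAL3 and 4CL1 were the 3 of 25 genes with opposite directions in the transformants on both arrays of each, as 17.3% of all probes were. The signal of PAL2 in the wild-type channels was alike in the array pairs, at 11.96 and 11.99 for OX7 and 11.98 and 12.07 for OX17, against which OX7 itself gave 12.30 and 12.08 and OX17 gave 11.06 and 11.12.

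Of the late anthocyanin enzymes, DFR (AT5G42800), dihydroflavonol reductase, was measured near background and LDOX (AT4G22880), anthocyanidin synthase, did not pass the filter. DFR had log2 ratios of 0.06 and -0.22 in OX7 and 0.53 and -0.18 in OX17, positive where the transformant was in Cy5 and negative where it was in Cy3. LDOX was well above background in 2 of 4 TaSK5 and 1 of 4 wild-type channels, with log2 ratios of -0.08 and 0.37 in OX7 and -0.21 and 0.36 in OX17. Neither showed a direction shared by both dyes.

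Downstream of them, 1 of the 5 glycosyl and acyl transferases was higher and 1 lower on all 4 arrays. Among all probes these shares were 12.4% and 12.2%, and the median of the 5 genes was -0.11. The lower one was UGT78D2 (AT5G17050), which puts glucose on position 3 of flavonols and anthocyanidins. Its log2 ratios were -0.51 and -0.14 in OX7 and -1.82 and -1.93 in OX17, with a mean of -1.10 ± 1.10 (limma 95% interval -2.56 to 0.36, adjusted p = 0.846). The TaSK5 signals of UGT78D2 were 10.08 and 10.57 in OX7 and 10.34 and 10.64 in OX17. The wild-type signals were 10.58 and 10.71 on the OX7 arrays and 12.16 and 12.57 on the OX17 arrays. The transformants thus gave similar signals, and the wild-type channels differed between the array pairs by -1.72 (OX7 minus OX17 arrays). Only 1.24% of all probes had a wild-type signal at least 2-fold lower on the OX7 arrays in both dyes, and UGT78D2 was the 1 of the 25 genes among them.

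The other transferases stayed close to 0. UGT79B1 (AT5G54060), which adds xylose to anthocyanins, stood at 0.19 and 0.11 in OX7 and 0.14 and 0.11 in OX17. The rhamnosyltransferase UGT78D1 (AT1G30530) had -0.33 and -0.15 in OX7 and -0.14 and 0.05 in OX17. UGT75C1 (AT4G14090), an anthocyanin 5-O-glucosyltransferase, had 0.03 and -0.07 in OX7 and -0.10 and -0.32 in OX17. The malonyltransferase 5MAT (AT3G29590) had 0.25 and 0.17 in OX7 and -0.21 and 0.15 in OX17. TT19 (AT5G17220), a glutathione transferase needed to bring anthocyanins into the vacuole, was slightly higher on each array, at 0.15 and 0.15 in OX7 and 0.17 and 0.22 in OX17. UGT79B1 and TT19 were not higher on all 4 arrays with median centring, nor was UGT79B1 with the scanner program's log ratios. The limma 95% intervals of these 5 means lay between -0.51 and 0.49.

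The highest mean of the 25 genes was that of a regulator. PAP1 (AT1G56650), the MYB that switches on the late anthocyanin genes, had log2 ratios of 1.04 and 1.35 in OX7 and 3.07 and 3.05 in OX17. It was the only one of the 25 genes at least 2-fold higher on all 4 arrays, as 0.249% of all probes were. The mean of 2.13 ± 1.32 corresponds to 4.37-fold (limma 95% interval 0.38 to 3.87, adjusted p = 0.846), and PAP1 was the 7th highest probe in OX17 and the 72nd highest in OX7. Its TaSK5 signals were 8.95 and 9.03 in OX7 and 10.38 and 10.19 in OX17, against 7.92 and 7.69 in the wild-type channels of the OX7 arrays and 7.31 and 7.14 in those of the OX17 arrays. Every TaSK5 signal exceeded every wild-type signal, which was not counted over all probes. The larger ratio of OX17 went with a TaSK5 signal 1.29 higher than that of OX7 and a wild-type signal 0.58 lower on the log2 scale.

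PAP2 (AT1G66390), the nearest relative of PAP1 and also an anthocyanin activator, had log2 ratios of 0.08 and -0.17 in OX7 and 0.59 and 0.43 in OX17. Its TaSK5 signals were 6.72 and 6.91 in OX7 and 7.98 and 7.78 in OX17, against 6.64 and 7.08 and then 7.38 and 7.34 in the matching wild-type channels. The OX17 arrays were higher than the OX7 arrays in both channels of PAP2. Its mean ratio of 0.24 ± 0.39 had a limma 95% interval from -0.37 to 0.84, which overlaps that of PAP1, and the difference between the genes was not tested.

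The partners of these MYBs were measured unevenly. TTG1 (AT5G24520), the WD40 protein of the complex, was well above background everywhere and stood at 0.41 and 0.13 in OX7 and 0.21 and 0.30 in OX17, with a mean of 0.26 ± 0.01 (adjusted p = 0.846). It was not higher on all 4 arrays with median centring. TT8 (AT4G09820) was well above background in 3 of 4 TaSK5 and 3 of 4 wild-type channels, and EGL3 (AT1G63650) in 1 of 4 TaSK5 and 0 of 4 wild-type channels. TT8 had log2 ratios of -0.01 and 0.17 in OX7 and -0.19 and 0.25 in OX17. EGL3 had -0.14 and 0.67 in OX7 and -0.66 and 0.57 in OX17.

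The flavonol MYBs were also dim, and none of the 3 passed the filter. MYB12 (AT2G47460) was well above background in 1 of 4 TaSK5 and 2 of 4 wild-type channels, with log2 ratios of -0.25 and 0.03 in OX7 and -0.46 and 0.25 in OX17. MYB11 (AT3G62610) was so in 1 of 4 TaSK5 and 0 of 4 wild-type channels, with -0.33 and 0.63 in OX7 and -0.64 and 0.49 in OX17. In 5 of the 6 genes below the filter, LDOX, MYB12, MYB11, TT8 and EGL3, the sign followed the dye and not the plant, as it did in 44.6% of all probes below the filter and in 14.4% of those above it. MYB111 (AT5G49330) was the exception, with 0.05 and 0.12 in OX7 and -1.44 and -0.60 in OX17. Its TaSK5 signals were 6.31 and 6.98 in OX7 and 6.56 and 7.69 in OX17, against wild-type signals of 6.26 and 6.86 on the OX7 arrays and 8.00 and 8.29 on the OX17 arrays. As with UGT78D2, it was the wild-type signal of the OX17 arrays that stood apart.

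The repressors differed from each other. MYBL2 (AT1G71030), a single-repeat MYB that represses the late anthocyanin genes, was higher on every array, at 0.50 and 0.68 in OX7 and 0.94 and 1.14 in OX17. Its mean of 0.82 ± 0.32 corresponds to 1.76-fold (limma 95% interval 0.30 to 1.34, adjusted p = 0.846). Both channels of MYBL2 were brighter on the OX7 arrays, with TaSK5 signals of 10.56 and 10.86 in OX7 and 9.19 and 9.53 in OX17, against wild-type signals of 10.05 and 10.18 on the OX7 arrays and 8.25 and 8.39 on the OX17 arrays. MYB4 (AT4G38620), a repressor of C4H, stood at -0.34 and 0.09 in OX7 and -0.62 and -0.38 in OX17, with a mean of -0.31 ± 0.26 (adjusted p = 0.846).

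**Figure D3:**
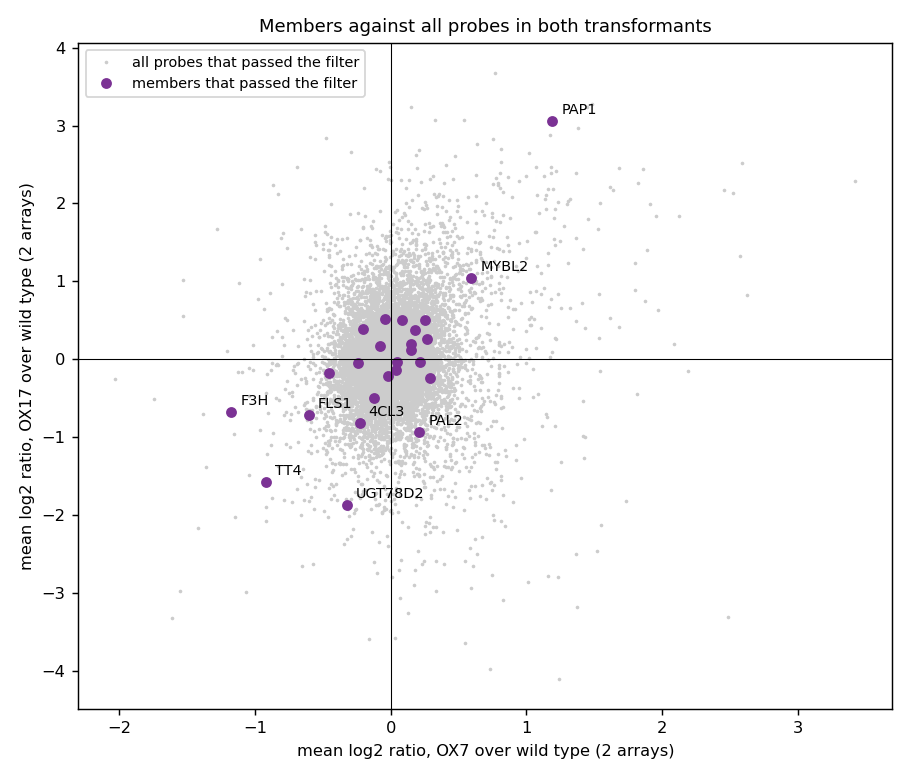
Mean log2 ratio over 2 arrays in OX7 (x axis) and OX17 (y axis) for the 25 genes that passed the filter (purple) and all 18854 probes that did (grey). PAP1 and MYBL2 lie at the upper right, TT4, F3H and FLS1 at the lower left, and PAL2 is lower in OX17 alone.

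The SD of the ratios over all probes was 0.24 in OX7 and 0.50 in OX17. In OX7, 9 of the 25 genes were higher and 8 lower on both arrays, where 30.1% and 31% of all probes were. In OX17, 10 were higher and 11 lower on both arrays, where 31.4% and 33.2% of all probes were. At least 2-fold on both arrays, PAP1 was higher and F3H lower in OX7, where 0.494% and 0.0976% of all probes were so. In OX17 it was PAP1 that was higher and TT4 and UGT78D2 that were lower, where 2.61% and 2.04% of all probes were so. Between the transformants, 9 of the 25 genes had OX7 arrays wholly above the OX17 arrays and 10 wholly below, where 25.5% and 25.6% of all probes did. In the wild-type channels 2 of the 25 genes differed at least 2-fold between the array pairs in both dyes. MYBL2 was higher on the OX7 arrays, as 0.786% of all probes were, and UGT78D2 was lower. In the TaSK5 channels MYBL2 was at least 2-fold higher in OX7 and PAP1 at least 2-fold lower, where 1.96% and 2.03% of all probes were so.

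**Figure D4:**
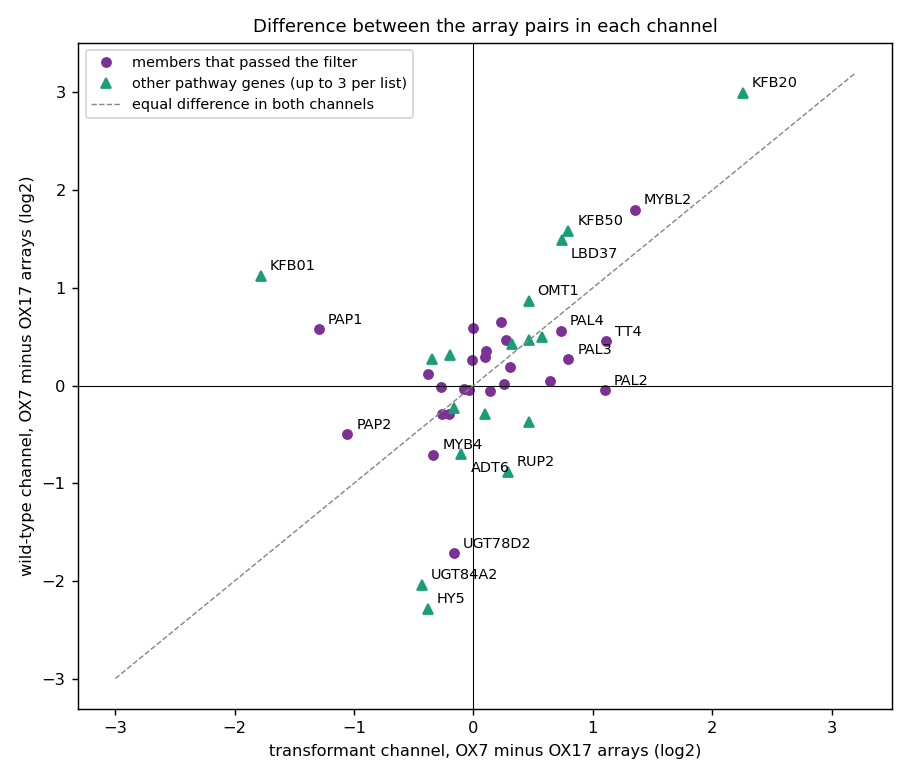
Difference between the OX7 and OX17 arrays in the transformant channel (x axis) and in the wild-type channel (y axis), as log2 and averaged over both dyes, for the 25 genes that passed the filter (circles) and other genes of the pathway (triangles). Genes on the dashed line differ equally in both channels. PAP1 and PAL2 lie apart along the x axis, while UGT78D2, UGT84A2 and HY5 lie apart along the y axis.

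Other genes around the pathway were taken as 9 lists, and up to 3 genes of each list that had the same direction on all 4 arrays are named. None of their members passed the test over all probes. In the list of further flavonoid and anthocyanin enzymes, 6 of 9 genes passed the filter. Of these 6, 0 were higher and 1 was lower on each array, where 12.4% and 12.2% of all probes were. The lower gene was CHIL (AT5G05270), a chalcone isomerase-like protein that assists chalcone synthase. It stood at -0.60 and -0.76 in OX7 and -0.84 and -0.51 in OX17, with a mean of -0.68 and an SD of 0.00 between the transformants (limma 95% interval -1.0 to -0.36, adjusted p = 0.846). Its value is close to that of FLS1 in both transformants.

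Among 13 further regulators that passed the filter, 2 were higher and 4 lower on all 4 arrays. Of all probes, 12.4% were higher and 12.2% lower on all 4 arrays. HY5 (AT5G11260), the bZIP factor of light responses that binds early flavonoid promoters, had log2 ratios of -0.27 and -0.28 in OX7 and -2.01 and -2.34 in OX17. RUP2 (AT5G23730), a repressor of the ultraviolet-B receptor, had -0.43 and -0.75 in OX7 and -1.62 and -1.91 in OX17. The TaSK5 signals of RUP2 were 9.89 and 9.55 in OX7 and 9.43 and 9.43 in OX17. Wild-type signals of RUP2 were 10.32 and 10.30 on the OX7 arrays and 11.05 and 11.34 on the OX17 arrays. The TaSK5 signals of HY5 were 9.11 and 8.90 in OX7 and 9.40 and 9.38 in OX17, against wild-type signals of 9.38 and 9.18 on the OX7 arrays and 11.42 and 11.72 on the OX17 arrays. The low ratio of HY5 in OX17 thus went with a bright wild-type channel, as in UGT78D2 and MYB111. LBD37 (AT5G67420), a nitrogen-responsive repressor of PAP1 and PAP2, was higher, at 0.40 and 0.57 in OX7 and 1.34 and 1.14 in OX17. Both channels of LBD37 were brighter on the OX7 arrays, by 0.74 for TaSK5 and 1.49 for wild type (log2). LBD38 (AT3G49940) and LBD39 (AT4G37540) of the same list were named after their values were seen. LBD38 had 0.66 and 0.59 in OX7 and 0.22 and -0.13 in OX17. For LBD39 the ratios were 0.30 and 0.61 in OX7 and -0.54 and -0.49 in OX17.

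All 4 Kelch F-box genes, whose proteins mark PAL for breakdown, were higher on all 4 arrays, as 12.4% of all probes were. Their median log2 ratio was 1.59, with 1.05 in OX7 and 1.97 in OX17. KFB01 (AT1G15670) had 0.67 and 0.87 in OX7 and 3.72 and 3.63 in OX17, the highest mean of all 18854 probes in OX17. KFB20 (AT1G80440) had 1.43 and 1.21 in OX7 and 2.35 and 1.77 in OX17, and KFB50 (AT3G59940) had 1.05 and 1.13 in OX7 and 1.98 and 1.78 in OX17. KFB39 (AT2G44130), named after its values were seen, ran the other way between the transformants, at 0.87 and 1.17 in OX7 and 0.47 and 0.57 in OX17. Both channels of KFB20 were brighter on the OX7 arrays, by 2.26 in the TaSK5 channels and 3.00 in the wild-type channels (OX7 minus OX17 arrays, log2). The wild-type channels of KFB01, KFB39 and KFB50 were also brighter on the OX7 arrays, by 1.12, 1.19 and 1.58. Their TaSK5 channels differed by -1.78, 1.68 and 0.79 in the same order. The mean of KFB20 was 1.69 ± 0.52 (limma 95% interval 0.94 to 2.44, adjusted p = 0.846). The 3 subgroup 4 MYB repressors related to MYB4 had a mean log2 ratio between 0.14 and 0.42. Of these 3, 1 was higher and 0 were lower on all 4 arrays, where 12.4% and 12.2% of all probes were. The higher gene was MYB3 (AT1G22640), at 0.25 and 0.49 in OX7 and 0.57 and 0.38 in OX17.

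**Figure D5:**
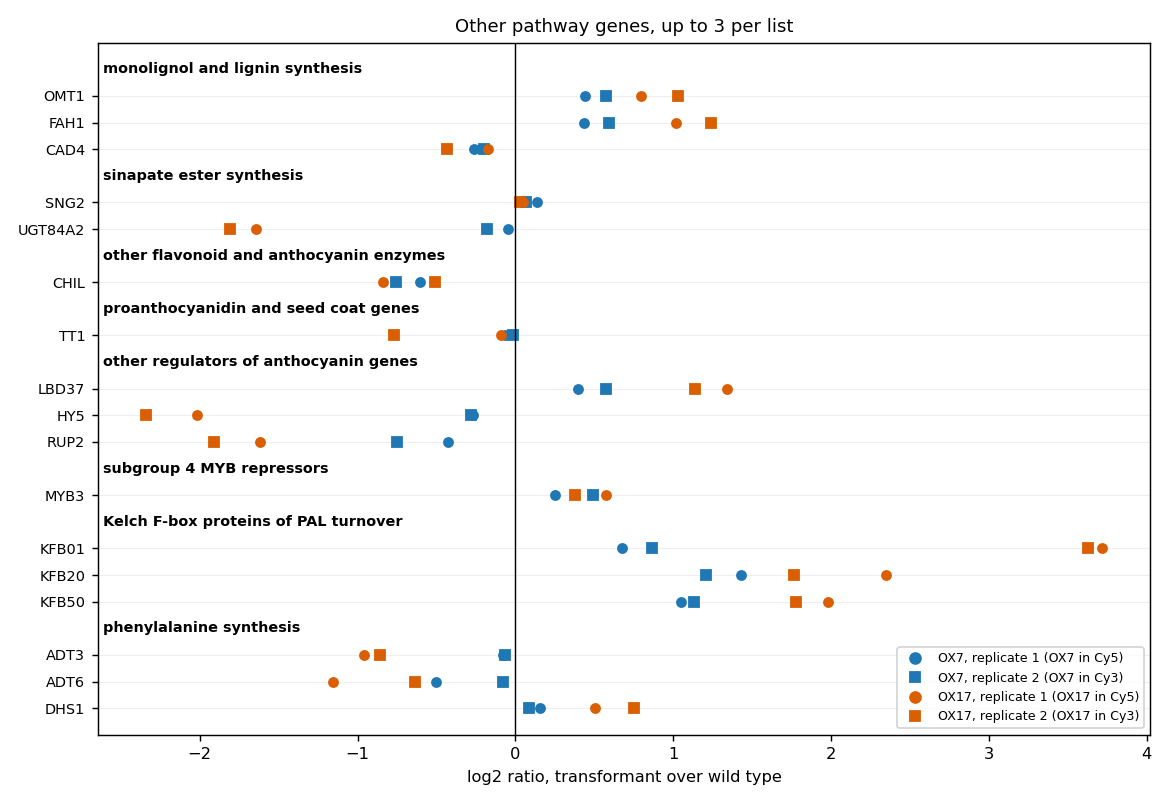
Log2 ratio of transformant over wild type (x axis) on each array for the other pathway genes named by rule, up to 3 per list (rows). Blue is OX7 and orange is OX17, circles are replicate 1 and squares replicate 2. The Kelch F-box genes lie right of 0 on every array, and HY5, RUP2 and UGT84A2 lie far left on the OX17 arrays.

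In the branch towards lignin 11 genes passed the filter. Of them 2 were higher and 1 lower on all 4 arrays, where 12.4% and 12.2% of all probes were. CAD5 (AT4G34230) and CSE (AT1G52760), named after their values were seen, had only 3 arrays and were left out of these counts. CAD5 stood at 0.07 and 0.14 in OX7 and 1.85 in OX17 replicate 1. CSE stood at 0.13 in OX7 replicate 2 and 0.76 and 0.51 in OX17. The median log2 ratio of the 11 genes was 0.26, with -0.0030 in OX7 and 0.63 in OX17. FAH1 (AT4G36220), ferulate 5-hydroxylase, stood at 0.43 and 0.59 in OX7 and 1.02 and 1.24 in OX17, and OMT1 (AT5G54160), which methylates both lignin precursors and flavonols, at 0.44 and 0.57 in OX7 and 0.80 and 1.03 in OX17. CAD4 (AT3G19450), a cinnamyl alcohol dehydrogenase, was the lower one, at -0.26 and -0.20 in OX7 and -0.18 and -0.43 in OX17. In the sinapate ester list of 4 genes, UGT84A2 (AT3G21560), which glucosylates sinapate, had -0.05 and -0.18 in OX7 and -1.64 and -1.81 in OX17. Its TaSK5 signals were 8.67 and 8.40 in OX7 and 8.82 and 9.12 in OX17, against wild-type signals of 8.72 and 8.58 on the OX7 arrays and 10.46 and 10.92 on the OX17 arrays. SNG2 (AT5G09640), a sinapoyltransferase of seeds, stood between 0.03 and 0.13.

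Phenylalanine synthesis feeds the pathway. Of its 9 genes 2 were higher and 2 lower throughout, where 12.4% and 12.2% of all probes were. The median log2 ratio of the 9 was -0.05. The arogenate dehydratases ADT3 (AT2G27820) and ADT6 (AT1G08250) had means of -0.49 ± 0.59 and -0.59 ± 0.43, and DHS1 (AT4G39980), which opens the shikimate pathway, had 0.37 ± 0.36. Of the 8 proanthocyanidin and seed coat genes 3 passed the filter, and TT1 (AT1G34790), a zinc finger factor of the seed coat, was lower on all 4 arrays, at -0.06 and -0.01 in OX7 and -0.09 and -0.77 in OX17. The cytochrome P450 reductases ATR1 (AT4G24520) and ATR2 (AT4G30210) supply electrons to C4H and TT7. Of these 2 genes 0 had 1 direction on all 4 arrays, where 24.6% of all probes did, and their median was 0.06.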

How the data were processed

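The members and lists were chosen with earlier results of these data known. Per the file headers, Agilent Feature Extraction 7.5.1 measured the mean intensity and the local background of every spot in Cy5 and Cy3, and the authors deposited these intensities with log10 ratios from the same program (Cy5 over Cy3, background-subtracted, LOWESS dye-normalised). The authors also deposited processed log2 ratios. Per the submitters' processing notes limma was used, though how background was handled and arrays were normalised or centred is not given in the sources used here. That table ran as log2 of Cy5 over Cy3 (r of 0.992 to 0.998 against the loess ratios computed here), with column medians of -0.00408, 0.00358, -0.00543 and 0.00486 for OX7 replicates 1 and 2 and OX17 replicates 1 and 2.

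From the intensities, limma 3.58.1 (R 4.3.3) computed ratios with normexp (offset 50), loess per array with 1075 control spots at weight 0, turned to transformant over wild type. Outlier spots (60 to 173 per array) were left out, and no member had a saturated spot. Loess sets the typical ratio to 0, and the offset shrinks ratios of dim spots. The average of the OX7 arrays and that of the OX17 arrays were tested against 0 (lmFit, eBayes, two-sided, 1 residual and 2.00 prior degrees of freedom, Benjamini-Hochberg over 18854 probes). The test was checked on simulated data. Precision is limited by the number of transformants and arrays. Well above background was the case for 86.4% to 95.9% of probes in TaSK5 channels and 88.9% to 96.0% in wild-type channels. The labels name separate plants for OX7 and OX17 only, so p-values measure the spread between those. All 31 members are named, and from other lists up to 3 genes of largest mean ratio with 1 sign on 4 arrays. Coordinates are left out, since the probes carry no genome build. Symbols are those of the assembly TAIR10.1 gene table or common synonyms, matched by locus. Alternatives were other corrections, normalisations, filters and replicate units, and leaving out each array.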

Additional observations from a re-analysis of the deposited data

Results flagged for a closer look

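For 3 genes every array of OX7 lay on one side of 0 and every array of OX17 on the other, and this difference was not tested. Their differences in log2 ratio, OX7 minus OX17, were 1.15 for PAL2, 0.53 for PAL3 and -0.59 for 4CL1. With median centring in place of loess 0 genes did so. The arrays of a transformant are repeat hybridisations, so that each side rests on 1 plant.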

How the results depend on the processing

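In all 15 alternatives to the fit 0 members passed the threshold, and 20 of the 25 members kept the sign of their mean log2 ratio in every alternative, PAP1, MYBL2, TT4, F3H and FLS1 among them. The means of the other 5 turned. PAL3 turned to -0.046 with median centring and lay between -0.072 and 0.13 when 1 array was left out, negative without OX7 replicate 1 or without OX17 replicate 2. 4CL1 turned to -0.11 with median centring. TT7 turned to -0.13 with the scanner program's log ratios, to -0.014 with the deposited ratios, and lay between -0.024 and 0.029 when 1 array was left out, negative without OX7 replicate 1 or without OX17 replicate 2. When 1 array was left out, DFR lay between -0.13 and 0.23, negative without OX7 replicate 1 or without OX17 replicate 1. PAL4 then lay between -0.14 and 0.047, positive without OX17 replicate 2. Over all probes, taking the 4 arrays as independent gave 79 genes past the threshold (66 higher, 13 lower) and the transformant as a random block gave 48 (43 higher, 5 lower). With the replicate block, where the number marks the dye, 1 gene passed and was higher, NATA1 (AT2G39030), named after its value was seen. Deviations of same-numbered arrays correlated at 0.56, and dye cannot be told apart from anything else that same-numbered arrays share. The fits with independent arrays or with the replicate block take repeat hybridisations for plants. The random block lets arrays of a transformant correlate, at 0.26 over all probes, but still fits 4 arrays and not 2 transformant means. With median centring 3 members were higher on all 4 arrays and 0 opposite, and the medians were -0.069 for general enzymes, -0.21 for transferases, -0.099 for phenylalanine synthesis and 0.072 for floral markers. With the scanner program's ratios 5 members were opposite, and the medians were 0.046 for general enzymes, -1.0 for early enzymes and -0.14 for transferases. The early enzymes had -0.53 with no background correction and -0.86 with offset 0. The transferases had -0.092 with no background correction and -0.085 with scaling between arrays. Leaving out 1 array at a time gave medians of 0.021 to 0.10 for general enzymes, -0.79 to -0.52 for early enzymes and -0.098 to -0.058 for transferases, and 4 to 6 opposite members, a count added after seeing the data. The cause of these shifts was not tested.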
